A study of Arabidopsis thaliana with 4 samples.

Results

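PG2 (AT1G70370) is an Arabidopsis gene annotated as polygalacturonase 2, and it was examined here together with its BURP-domain relatives JP630 (AT1G23760), PG1 (AT1G60390) and RD22 (AT5G25610) and with AT5G04310, a pectate lyase-like gene. These 5 genes were chosen by locus, with their values from the same arrays already known, so what follows on PG2 and AT5G04310 under estradiol against mock is a description, without a test. Probe sets were matched through the platform table and, where it has no entry, through the locus that Supplementary Data 1 gives for a probe set. Only 2 of the 5 genes found a probe set in this way, beside 13365 genes named in this way over the whole array. The platform table does not list 8730 probe sets, of which Supplementary Data 1 names 78. A gene without a match may therefore still have a probe set on the array. PG2 has 1 probe set (264315_at), named by Supplementary Data 1 alone, and AT5G04310 has 2 (245706_at and 245708_at), both named by the platform table. JP630, PG1 and RD22 were not matched and are not analysed here. The values below are therefore those of 1 BURP gene and 1 pectate lyase-like gene, and they give no picture of the BURP proteins as a group. AT5G04310 itself is not counted among the BURP genes.

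BURP proteins are plant proteins that share a conserved C-terminal domain, and most are secreted to the cell wall or the apoplast. PG2 and its nearest relatives resemble the non-catalytic subunit known from tomato fruit, which binds a polygalacturonase and does not itself cut pectin. RD22, another branch of the family, is known as a gene induced by dehydration and abscisic acid. Pectin is the gel-like polysaccharide of the primary wall. Polygalacturonases hydrolyse its homogalacturonan backbone, pectate lyases cleave the same backbone by elimination, and pectin methylesterases remove its methyl groups, which alters how well the other enzymes can act.

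RNA came from whole seedlings of KUA1-IOX, a stable T3 line in the Col-0 background in which a constitutively made receptor, XVE, enters the nucleus when estradiol is given and drives KUA1, a MYB-like transcription factor, from a LexA promoter. Seedlings aged 14 days were kept for 4 h in liquid medium that held 15 µM estradiol in ethanol, or ethanol alone (mock), and 2 biological replicates of each treatment were hybridized to Affymetrix ATH1 arrays, 1 array per replicate. Both groups carry the construct. One label calls the genotype of the mock samples a control, although their titles name KUA1-IOX, as the methods do for both groups. No array holds estradiol-treated seedlings without the construct, so estradiol itself and KUA1 induction cannot be told apart, and the number of transgenic lines behind the seedlings is not stated in the sources used here.

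Each of the 22746 non-control probe sets has 1 MAS5 signal per array on a linear scale, with every array scaled to a trimmed mean of 100.0. Median signals were 36.2 to 38.9. KUA1 itself read 203 and 170.2 on the mock arrays against 1887 and 3373 on the estradiol arrays, a log2 fold change (estradiol over mock) of 3.76 (SE 0.29). A probe set is called dim in a group if, by mean log2 signal, it ranked in the lowest 40% there, which corresponds to signals of 21.7 to 23.5 on the 4 arrays. Of the shoot and root marker genes listed for the check of the tissue, the leaf gene RCA, for Rubisco activase, had signals of 2298 to 2693, and the root hair expansin EXPA7 had signals of 22.9 to 55.2. Each was the only measured gene of the 4 markers listed for its organ. The lowest EXPA7 signal lay close to the dim level, so root RNA was shown less clearly than leaf RNA. In a whole seedling, fewer cells of a type and less RNA per cell cannot be told apart. With limma, 0 of the 22746 probe sets (0%) passed an adjusted p of 0.05. The lowest adjusted p was 0.158, and 1481 (6.51%) had an unadjusted p under 0.05. After the same adjustment, the methods' t-test called 0 as well. The precision is limited by there being 4 arrays in all.

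PG2 signals were about 2.6 times lower after estradiol, on both estradiol arrays. The signal of PG2 was 184 on mock replicate 1 and 259.8 on mock replicate 2, against 80.9 on estradiol replicate 1 and 84.9 on estradiol replicate 2. The groups did not overlap, and the estradiol arrays nearly coincided. The means were 222 ± 53.8 (SD, n = 2) in mock-treated and 82.9 ± 2.86 (SD, n = 2) in estradiol-treated seedlings. On the log2 scale the difference was -1.40 with a limma standard error of 0.21, a 2.64-fold lower geometric mean. By mean log2 signal PG2 ranked at the 86.0th percentile of the array in the mock group and at the 67.9th in the estradiol group, so it was not dim in either.

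The replicates of PG2 differed more in the mock group than in the estradiol group. The mock arrays stood 1.41-fold apart, a wider gap than at 86.1% of the 2275 probe sets of like mean signal, where the median gap was 1.15-fold. The estradiol arrays stood 1.05-fold apart, a gap wider than at 18.6% of those probe sets. The distance between the groups was larger than either replicate gap. Without mock replicate 2, the array with the higher mock signal, the log2 fold change of PG2 was -1.15, and with the other mock array left out it became -1.65. Leaving out either estradiol array gave -1.36 and -1.43.

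For orientation, 526 probe sets (2.31%) were at least 2-fold lower after estradiol with the groups apart, meaning that the higher estradiol array was still under the lower mock array, and 585 (2.57%) were at least 2-fold higher in the same sense. Whatever the fold, the groups were apart at 4104 probe sets (18.0%) in the lower and at 3664 (16.1%) in the higher direction. Once probe sets dim in both groups were set aside, 14060 brighter ones were left, of which 87 (0.619%) were at least 2-fold lower with the groups apart and 133 (0.946%) higher. PG2 belongs to the 87. Its low signal after estradiol was among the reasons for choosing it, so nothing is read from that.

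**Figure D1:**
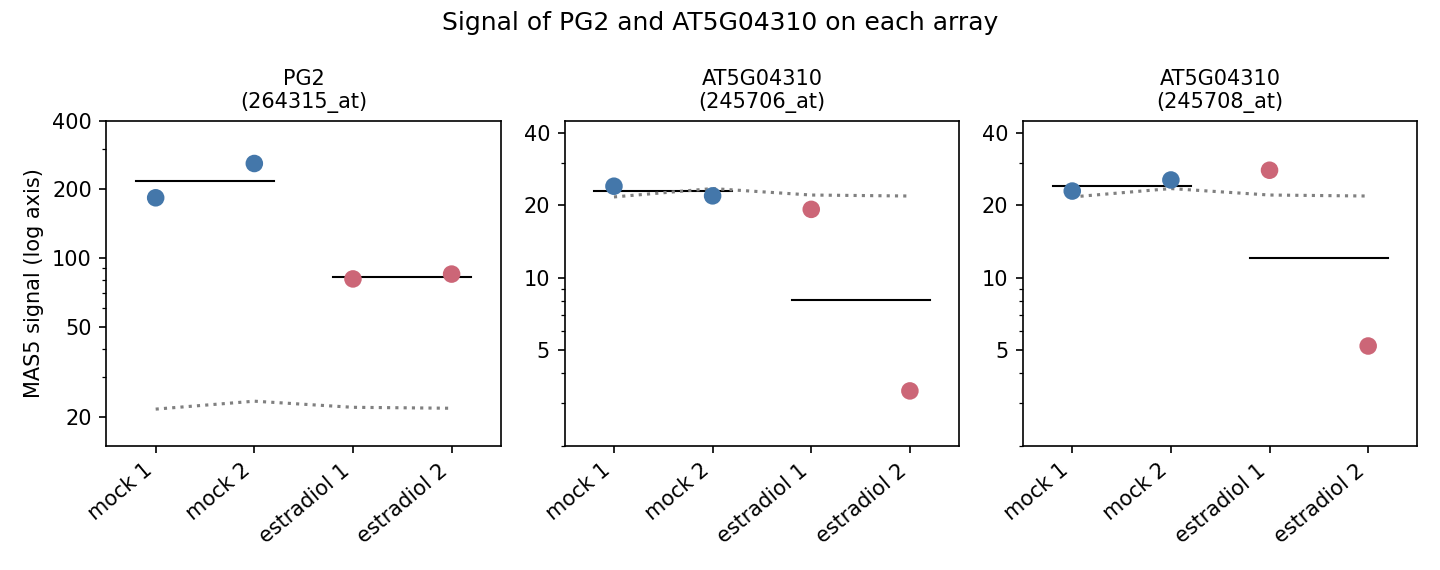
MAS5 signal (log axis, with another range in the panel of PG2) of PG2 and of both probe sets of AT5G04310 on the 2 mock arrays (blue) and the 2 estradiol arrays (red). Points are single arrays, black lines are geometric means of 2 arrays and the dotted line is the 40th percentile of all probe sets on each array. PG2 is near 80.9 and 84.9 on both estradiol arrays, whereas AT5G04310 is low on estradiol replicate 2 alone.

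AT5G04310 showed another pattern, in which only 1 of the 2 estradiol arrays was low. At probe set 245706_at the signals were 24.0 and 21.9 on the mock arrays, 19.3 on estradiol replicate 1 and 3.38 on estradiol replicate 2. At probe set 245708_at they were 22.9 and 25.5 on the mock arrays, 28.0 on estradiol replicate 1 and 5.20 on estradiol replicate 2. Estradiol replicate 1 lay close to the mock arrays at both probe sets, slightly under them at 245706_at and above them at 245708_at, so that the groups were apart at 245706_at and overlapped at 245708_at. The probe sets are separate measurements of the same RNA and not replicates of the treatment.

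The log2 fold change was -1.51 (SE 0.80) at 245706_at and -1.0 (SE 0.77) at 245708_at. The estradiol arrays stood 5.70-fold apart at 245706_at and 5.39-fold at 245708_at, wider than at 99.6% and 99.5% of 2275 probe sets of like mean signal, where the median gap was 1.25-fold. The mock arrays stood 1.10-fold and 1.11-fold apart. Without estradiol replicate 2 the log2 fold change was -0.25 at 245706_at and 0.21 at 245708_at, and without estradiol replicate 1 it was -2.76 and -2.22. The level of AT5G04310 thus rested on which estradiol array was read.

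AT5G04310 was also close to the dim range. Its mock means lay at the 40.4th and 41.5th percentile of all probe sets, and its estradiol means at the 22.1st and 28.3rd, which makes it dim after estradiol. With signals under each array's 40th percentile raised to that percentile, the log2 fold change was -0.11 at 245706_at and 0.033 at 245708_at. PG2 kept its value of -1.40 with that floor, since none of its signals was reached by it. RefSeq lists 2 transcripts for PG2 and 3 for AT5G04310, and which of them the probe sets detect is not stated in the sources used here.

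Signals at the 2 genes were also set beside those of the nearest protein-coding genes on the chromosome. Of the 2 genes on either side of PG2, AT1G70350 and AT1G70360 had a probe set of their own. AT1G70350 read 59.5 and 82.6 on the mock arrays against 74.4 and 81.1 on the estradiol arrays, and AT1G70360 read 56.8 and 48.8 against 48.4 and 46.1. Their log2 fold changes were 0.15 and -0.16, small beside that of PG2. Near AT5G04310, AtRZ-1c had a log2 fold change of -0.0082 and CYP84A4 one of -0.27, and neither was low on estradiol replicate 2 alone. The signals of CYP84A4 were 26.2 and 21.4 against 18.0 and 21.4.

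The 5 genes whose pattern over the 4 arrays lay nearest to that of PG2 were found by the root mean square difference in log2 signal, after each probe set's own mean was subtracted, among 7666 named probe sets left after those dim in both groups were set aside. Nearest was NAS1, a nicotianamine synthase, with a difference of 0.076 and signals of 153.7 and 202 under mock treatment against 70.3 and 76.0 under estradiol. AT4G25790, which encodes a secreted protein of the CAP family, followed at 0.086 with 23.1 and 28.7 against 9.87 and 11.0. The root hair expansin EXPA18 followed at 0.094, with 27.7 and 46.9 against 12.8 and 13.8. AT5G42720 and PnsL3, a lumenal subunit of the chloroplast NDH complex, had differences of 0.13 and 0.14. Like PG2, each of the 5 had its highest signal on mock replicate 2 and its groups apart. Over 4 arrays such likeness is a description only. All 5 are on the study's own list of lower genes, which was drawn from the same arrays. NAS1 and PnsL3 are named through that list alone, so only their place on it made them candidates. Probe sets without a name could not be among the 5, whatever their pattern.

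The wider set of pectin enzymes was described from 3 gene lists, in which a gene counts as measured if a probe set is assigned to it alone in the platform table. Measured were 23 of 26 pectate lyases, 37 of 52 polygalacturonases and 45 of 67 pectin methylesterases, 105 genes in all. Most were dim in both groups, namely 14, 27 and 34 genes, which left 30 brighter genes. Limma called 0 of the 105 genes after adjustment over all probe sets, and 8 had an unadjusted p under 0.05, as did 6.51% of all probe sets. At least 2-fold lower with the groups apart were 8 of the 105 (7.62%, against 2.31% of all probe sets), and 2 were higher, against 2.57% of all probe sets. Those shares are not a like reference for lists that are mostly dim, since brighter probe sets passed less often, at 0.619% and 0.946%. Of the 8 lower genes, 4 were among the 30 brighter ones and the others were dim in both groups, as were the 2 higher genes. Among the 8 lower genes, AT5G04310 counts through 245706_at alone, since its groups overlapped at 245708_at. It was chosen with its values known, and AT1G10640, AT1G60590 and AT5G04960 are also on the study's list, so the count is not independent of that choice. In the medians that follow, AT5G04310 enters with the mean of its 2 probe sets (-1.26). The median log2 fold changes were -0.22 for pectate lyases, -0.052 for polygalacturonases and -0.10 for pectin methylesterases, beside -0.0080 over all probe sets.

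The brighter pectate lyases differed mainly between the mock replicates. Apart from AT5G04310 there were 8, and in each of them mock replicate 2 had the highest signal of the 4 arrays, as it did at 28.4% of the 14060 brighter probe sets. AT4G24780, for example, read 21.0 and 74.8 on the mock arrays against 37.4 and 17.2 on the estradiol arrays. For AT5G63180 the signals were 30.8 and 125 against 49.2 and 57.8. In these genes the groups overlapped, with mock replicate 1 under at least 1 estradiol array. The same held for AT1G04680, with 37.4 and 68.7 against 38.7 and 24.1, and for AT3G53190, with 34.0 and 66.6 against 34.3 and 30.1. In 4 of the 8, mock replicate 2 was at least 2-fold above mock replicate 1, which was seen at 2.55% of the 14060. AT3G55140 was nearly level, at 115 and 128 against 122 and 119.7. Over all 23 measured pectate lyases, dim ones included, the median was -0.023 with mock replicate 2 left out and -0.26 with mock replicate 1 left out, and it was -0.016 and -0.21 with estradiol replicate 1 or 2 left out. PG2 shared the higher signal on mock replicate 2, but its estradiol signals lay well under mock replicate 1 as well. The pollen gene AT59, dim throughout with signals from 0.93 to 9.30, had the smallest limma p of the list and overlapping groups.

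**Figure D2:**
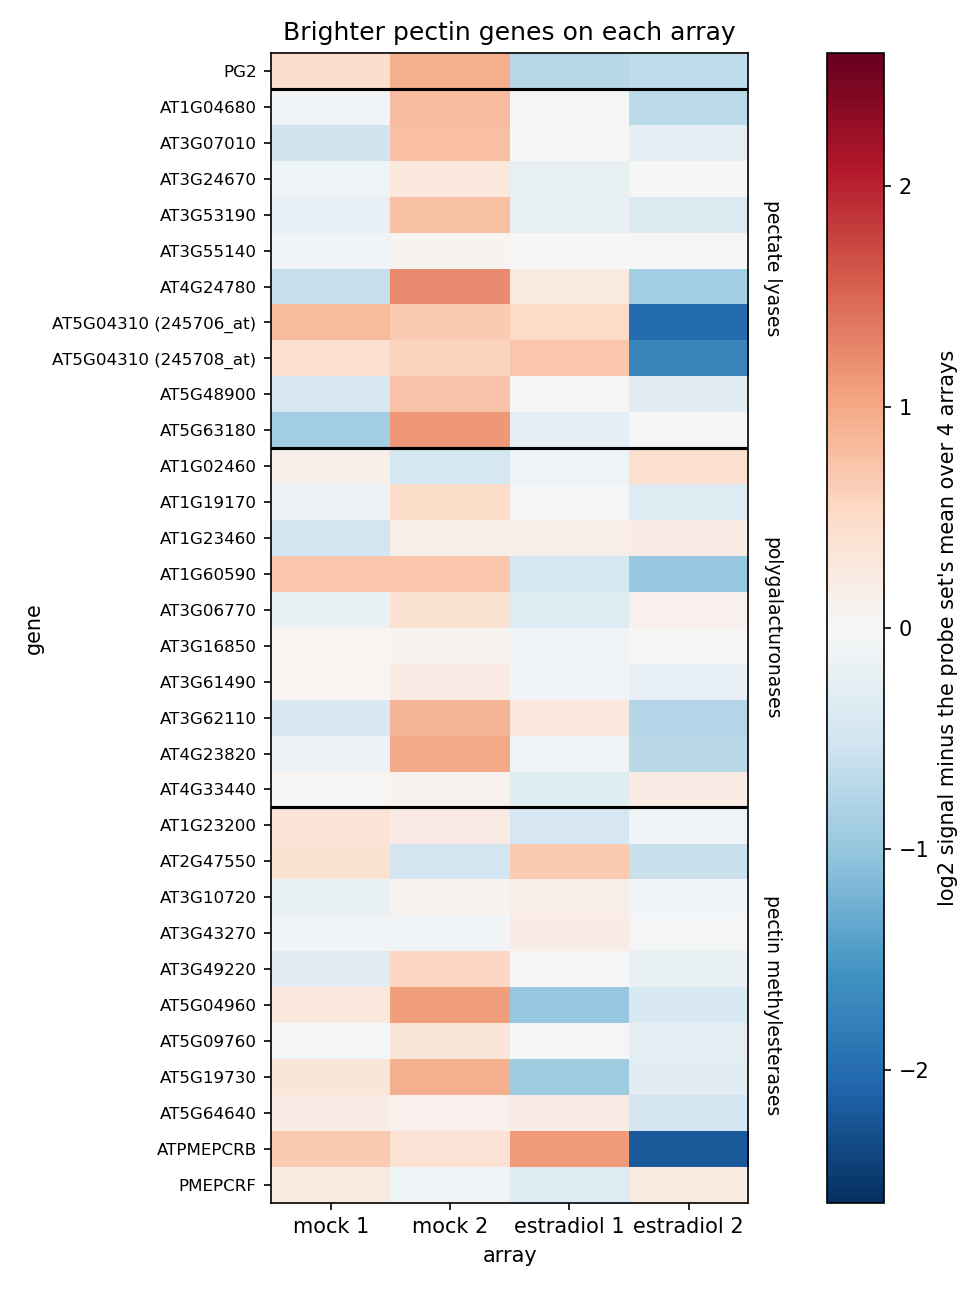
Log2 signal minus the mean over 4 arrays (colour) for PG2 and the brighter probe sets of the 3 pectin lists (lines) on each array (columns). Mock replicate 2 is the highest array in 8 of 8 pectate lyases other than AT5G04310, both probe sets of AT5G04310 are low on estradiol replicate 2 alone, and PG2 is low on both estradiol arrays.

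Of the 37 measured polygalacturonases, 27 of them dim in both groups, 3 were at least 2-fold lower with the groups apart and 1 was higher. All probe sets, which are less often dim, gave 2.31% and 2.57%. AT1G60590 came nearest to PG2 among the brighter ones, at 23.6 and 23.8 on the mock arrays against 10.5 and 7.33 on the estradiol arrays, or -1.44 (SE 0.34) in log2 fold change. AT1G10640, dim in both groups, read 15.8 and 27.4 against 5.42 and 5.67, a log2 fold change of -1.91. Both are also on the study's list. AT2G43870, also dim in both groups, read 7.93 and 6.14 against 2.00 and 2.27. All 3 had their groups apart. With the same floor, the log2 fold changes of AT1G60590 and AT1G10640 were -0.11 and -0.15. The higher gene, AT3G48950, was dim as well and had a low signal of 1.93 on mock replicate 2, against 13.6 to 15.0 on the other arrays. Among the brightest, AT4G23820 read 106 and 232 against 109.6 and 70.8, again with a high mock replicate 2, whereas AT3G16850 read 102 and 103 against 90.5 and 96.8. In 7 of the 10 brighter polygalacturonases mock replicate 2 was the highest array, beside 28.4% of the 14060.

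Of the 45 measured pectin methylesterases, 34 of them dim in both groups, 4 were at least 2-fold lower with the groups apart and 1 was higher. All probe sets, which are less often dim, gave 2.31% and 2.57%. AT5G04960, on the study's list, read 23.8 and 41.8 on the mock arrays against 9.87 and 15.0 on the estradiol arrays, a difference of -1.38 (SE 0.40) on the log2 scale. AT5G19730, which that list does not hold, read 24.4 and 37.2 against 10.4 and 16.0, a difference of -1.22 (SE 0.37). The groups were apart in both genes, and both were dim after estradiol. The lowest log2 fold change, -3.02, came from AT4G03930 and the highest, 2.45, from AT4G33230, both dim in the 2 groups. ATPMEPCRB, singled out after its values were seen, resembled AT5G04310 in that 1 estradiol array was far lower, with 105 and 85.1 against 141 and 14.3. An estradiol replicate 2 at least 4-fold under estradiol replicate 1 was found at 409 probe sets (1.80%). Mock replicate 2 was the highest array in 4 of the 11 brighter pectin methylesterases, not far from that 28.4%.

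**Figure D3:**
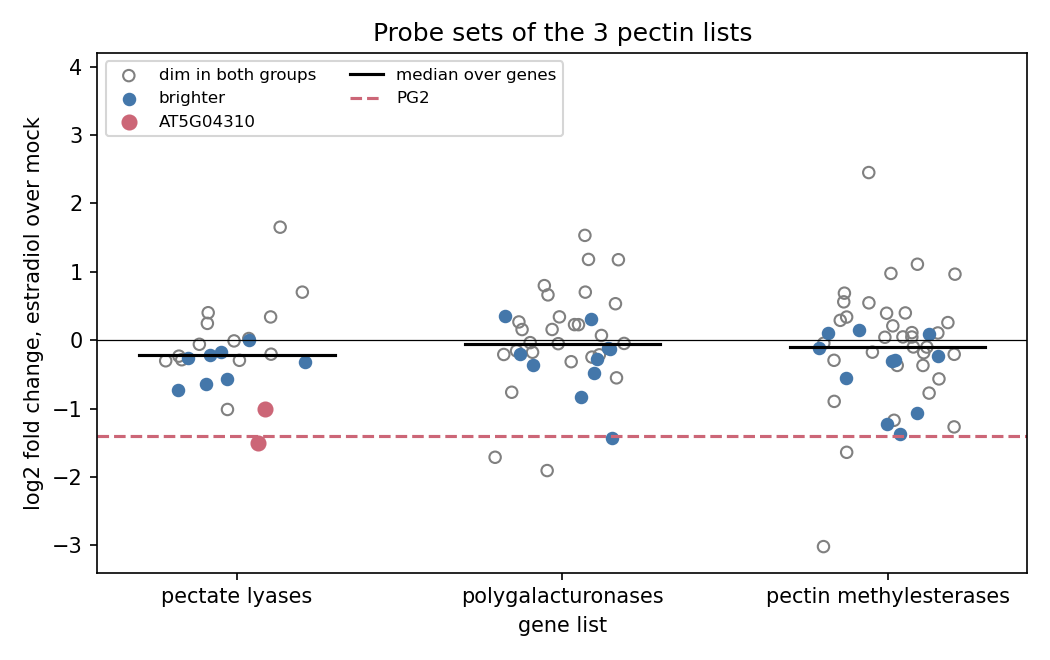
Log2 fold change, estradiol over mock, of every probe set of the 3 pectin lists (points, spread sideways for legibility), with open points for those dim in both groups, red points for AT5G04310 and a dashed line at PG2 (-1.40). Black bars are medians over genes, -0.22, -0.052 and -0.10, and the widest values are those of dim probe sets.

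Outside these lists, AT1G23205, annotated in the invertase and pectin methylesterase inhibitor family and on the study's list, read 77.5 and 100.2 on the mock arrays against 27.7 and 51.8 on the estradiol arrays, a difference of -1.22 (SE 0.34) on the log2 scale. It was bright in both groups, and its value was the same with the floor at the 40th percentile, but leaving out estradiol replicate 1 gave -0.77 and leaving out estradiol replicate 2 gave -1.67. Of 16 genes listed for pectin synthesis, the platform table names 1, GAUT15 of the galacturonosyltransferase family, which read 31.5 and 33.1 against 19.4 and 23.8, with the groups apart and a log2 fold change of -0.59. GAUT15 was dim after estradiol, and the groups were apart in the lower direction at 18.0% of all probe sets. Of 15 genes listed for drought and abscisic acid responses, the setting in which RD22 is known, 2 were measured and neither was called. COR15A, a cold and drought responsive gene, read 6.19 and 30.1 against 188 and 25.5, so that 1 estradiol array stood far above the others. The dehydrin gene COR47 had 759 to 924 on all arrays with overlapping groups. The regulators of RD22 and the polygalacturonase inhibitors that were listed were not matched and are not analysed here.

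The root hair expansin EXPA7 was lower after estradiol, at 35.1 and 55.2 against 27.7 and 22.9, or -0.80 in log2 fold change. That is less than 2-fold. Its groups were apart, which in the lower direction held at 18.0% of all probe sets. The leaf gene RCA stood at -0.11, and its groups overlapped. Of the 4 shoot and 4 root markers listed, 1 of each was measured, so the share of root in the samples was not measured. EXPA7 is a single gene, in which less root and less RNA per cell cannot be told apart. EXPA18, the other root hair expansin named here, had a log2 fold change of -1.44. It is not one of the listed markers and was named for its likeness to PG2 on these arrays, so nothing is read from that value. The part of root or root hair RNA in the values of PG2 was not tested.

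**Figure D4:**
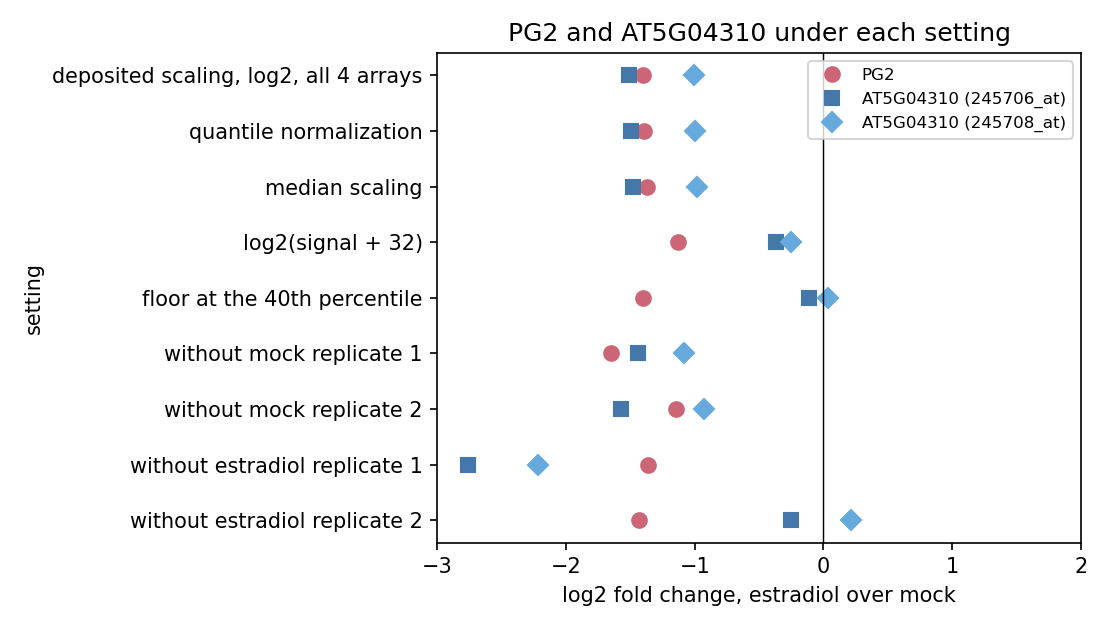
Log2 fold change, estradiol over mock, of PG2 (circles), AT5G04310 at 245706_at (squares) and at 245708_at (diamonds) under each scaling, treatment of low signals and left-out array. PG2 lies between -1.65 and -1.13 throughout, whereas AT5G04310 ranges from -2.76 to 0.21.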

How the data were processed

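The authors deposited MAS5 signal intensities on a linear scale, 1 per probe set and array, from ATH1 arrays hybridized with biotinylated cRNA. Each array had been scaled to a mean of 100.0 without the lowest and highest 2% of signals. No source used here states the MAS5 version. All signals were above 0. Of 22810 probe sets, 64 controls were left out. The other 22746 were tested on the log2 scale with limma 3.58.1 in R 4.3.3. Its functions lmFit and eBayes were used with the trend option and without a block, and p-values were adjusted after Benjamini and Hochberg over all 22746. The platform table lists 14016 of them and does not list 8730, of which Supplementary Data 1 names 78. Symbols and neighbouring genes follow RefSeq for TAIR10.1. The scripts were tested on simulated data. The fold change columns of Supplementary Data 1 were not used.

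The 5 genes and all gene lists were chosen with earlier results of these data known. Lists follow general knowledge of the gene families. Named were the matched genes, KUA1, the pectin genes of Supplementary Data 1, up to 4 genes per list with the smallest limma p, the 5 probe sets most like PG2, and examples chosen after their values were seen. The methods call the replicates biological. The p-values cover the spread among these 4 samples.

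Results were recomputed after median scaling or quantile normalization, on log2(signal + 32), with low signals raised to the 40th percentile of their array, and without probe sets dim in both groups. Further fits had no trend, the replicate number as a block, or 1 array fewer, and the methods' t-test was also run.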

Additional observations from a re-analysis of the deposited data

How the results depend on the processing

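The log2 fold change of PG2 was -1.13 on log2(signal + 32), moved by more than its replicate spread, and between -1.65 and -1.15 with an array left out. At AT5G04310 the floor at the 40th percentile gave -0.11 at 245706_at and a reversed sign, 0.033, at 245708_at, and leaving out arrays gave -2.76 to -0.25 and -2.22 to 0.21, reversed at 245708_at without estradiol replicate 2. KUA1 stayed between 3.34 and 4.18 with an array left out. Limma called 0 probe sets in all settings except with the floor, where it called 565, of which 419 had no array at the floor, while 8011 probe sets had all 4 arrays at it, and except with a crossed pairing. The counts at least 2-fold lower and higher with the groups apart, 526 and 585, were 11 and 50 on log2(signal + 32), 56 and 102 with the floor, 87 and 133 without dim probe sets and 120 and 143 with the methods' t-test at P below 0.05. With an array left out they were 860 to 1225 and 982 to 1145, since a group of 1 array overlaps less often.

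The median of pectate lyases was -0.049 on log2(signal + 32) and -0.038 with the floor, that of polygalacturonases -0.24 without dim probe sets, and that of pectin methylesterases -0.0096 on log2(signal + 32), -0.038 with the floor and -0.29 without dim probe sets. With an array left out the medians were -0.26 to -0.016, -0.10 to 0.013 and -0.10 to 0.049. Genes at least 2-fold lower or higher numbered 0 in each of the 3 lists on log2(signal + 32) and with the floor. Without dim probe sets 1 polygalacturonase and 2 pectin methylesterases were lower and 0 of either higher, and with median scaling 2 pectin methylesterases were higher. With an array left out, 1 to 6, 3 to 7 and 5 to 7 genes of the lists were lower, and 1 to 1, 2 to 5 and 1 to 4 were higher. The causes were not tested.

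The labels number the replicates 1 and 2 in both groups but state no shared batch. Deviations of same-numbered arrays had a Pearson correlation of -0.132 over all probe sets and of -0.3 over the 14060 brighter ones. With the replicate number as a block, limma called 0 probe sets. The log2 fold changes of PG2 and AT5G04310, -1.40, -1.51 and -1.0, cannot change with that block, since both groups hold replicates 1 and 2. Only their standard errors can. A crossed pairing, added after seeing the data, gave 3 calls.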
